A study of Drosophila melanogaster with 9 samples.

Results

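The 67 genes described here encode the machinery that moves membrane and cargo between the compartments of the cell, measured in testes of Drosophila melanogaster in which spermatogenesis runs to completion or stops at the spermatocyte stage. They were chosen by name from the probe sets that carry 1 gene symbol: names ending in COP, and names that begin with Sec, Sar1, Arf, Rab, Syx or Vps, with a number after Sec, Arf, Rab, Syx and Vps. Of 10845 genes with such a probe set, 67 matched, and where a gene had several probe sets the one with the highest mean over all arrays stands for it. No name starting with Sar1, Arf or Syx was among them. A name is not a function. Sec61alpha, Sec61beta, Sec61gamma and Sec63 belong to the channel that threads new proteins into the endoplasmic reticulum, so they are kept apart from the vesicle coats.

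Cargo leaves the endoplasmic reticulum in vesicles with a COPII coat and is brought back from the Golgi in vesicles with a COPI coat. Rab GTPases mark each membrane, and tethering complexes such as the exocyst, GARP and HOPS catch vesicles at their target. Retromer recovers receptors from endosomes, and the ESCRT complexes bud vesicles into endosomes for degradation. In fly males this machinery serves the large primary spermatocyte, in which subunits of the exocyst and of the COG and TRAPP tethers are needed for cytokinesis, and the spermatid, whose acrosome forms from the Golgi and whose membrane is remodelled along a long tail.

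RNA came from testes dissected by hand from males kept at 25 °C and taken within a day of eclosion, with tissue pooled until there was enough, on 9 Affymetrix arrays, 3 for each of 3 genotypes. Control males were red e and had normal testes. The can males were w and carried can[3] on the red e chromosome, so control and can share those eye and body colour markers. The w marker was named for can and not for control, so its part cannot be told apart from that of can[3]. The remaining set was labelled comr, and by title and genotype these males were comr[z1340] cn bw, while source name and description give aly[5], an allele of another meiotic arrest gene. The labels do not settle which gene was mutant, and "labelled comr" stands for that group. Its markers lie on another chromosome from red and e, so in comparisons with that group strain and mutation cannot be told apart. The comparisons ask which genes depend on the meiotic arrest genes, whose products switch on transcription for meiosis and spermatid formation.

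The labels do not say that replicates were separate dissections, so p values measure the spread between arrays, and the number of arrays limits the precision. Within groups the arrays correlated at 0.972 to 0.987 over probe sets. The comr transcript read 13.9 to 23.8 in control, 30 to 35.7 in arrays labelled comr and 49.1 to 68.7 in can. The can transcript read 25.3 to 41.9 in control, 149.0 to 174.7 in arrays labelled comr and 27.1 to 45.4 in can, and the aly transcript 79.8 to 89.6, 526.9 to 558.8 and 165.1 to 187.7. None of the named genes was below control in signal on the arrays labelled for it. Signal is the deposited brightness of a probe set, and 20.3, the brightest reading among 23 unspiked control probe sets, is used as the floor. Summed markers of primary spermatocytes (9 genes, none under the floor) were 945.7 to 1035.4 in control, 5208.6 to 5323.3 in arrays labelled comr and 2701.9 to 2936.7 in can. Summed spermatid markers were 10436.0 to 10740.7, 271.4 to 324.4 and 2100.9 to 2287.2, and 6 of the 7 were at or under the floor in arrays labelled comr. In whole testes fewer cells of a type and less RNA per cell cannot be told apart. The 3' to 5' signal ratio of GAPDH, a measure of RNA integrity, was 2.29 to 2.87 in control, 5.27 to 6.48 in arrays labelled comr and 4.48 to 7.02 in can. The same ratio of actin was 2.51 to 2.68, 2.24 to 2.52 and 2.41 to 2.87, and that of eIF4a 4.99 to 5.55, 5.77 to 7.41 and 3.29 to 4.26. Summed haemocyte markers (4 genes, Hml under the floor in control) were 138.3 to 268.0, 576.6 to 658.9 and 389.0 to 448.6. Early germline markers (5 genes, bam under the floor in control) summed to 147.5 to 162.1, 619.9 to 642.8 and 404.3 to 509.3, and cyst and hub cell markers (6 genes, upd1 and tj under the floor throughout) to 188.3 to 203.2, 200.7 to 212.4 and 245.2 to 253.3. The accessory glands were removed at dissection, yet their RNA (13 genes) varied within each group, at 614.8 to 4764.8, 52.2 to 2037.9 and 115.2 to 4045.8. The part that cell makeup and RNA quality play in the results on the traffic genes was not tested.

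On the scale of the deposited values most members called were higher in the arrested testes, and the few that were lower included the largest change of any tested member, in Rab3-GAP. A member was called where the Benjamini-Hochberg adjusted p from limma lay under 0.05 over all 9778 tested probe sets and the change in signal was at least 2-fold. Of the 63 members bright enough to test, 27 (42.9%) were called higher in arrays labelled comr, where 28.9% of all tested probe sets were, and 4 (6.35%) were called lower, against 16.7% of all. In can, 15 members (23.8%) were called higher, a share near the 20.7% of all probe sets, and 1 (1.59%) was called lower against 13.0%. Between the mutants, 4 members (6.35%) were higher in arrays labelled comr against 4.54% of all, and 3 (4.76%) were lower against 10.3%. The 2 comparisons with control share their 3 control arrays.

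**Figure D1:**
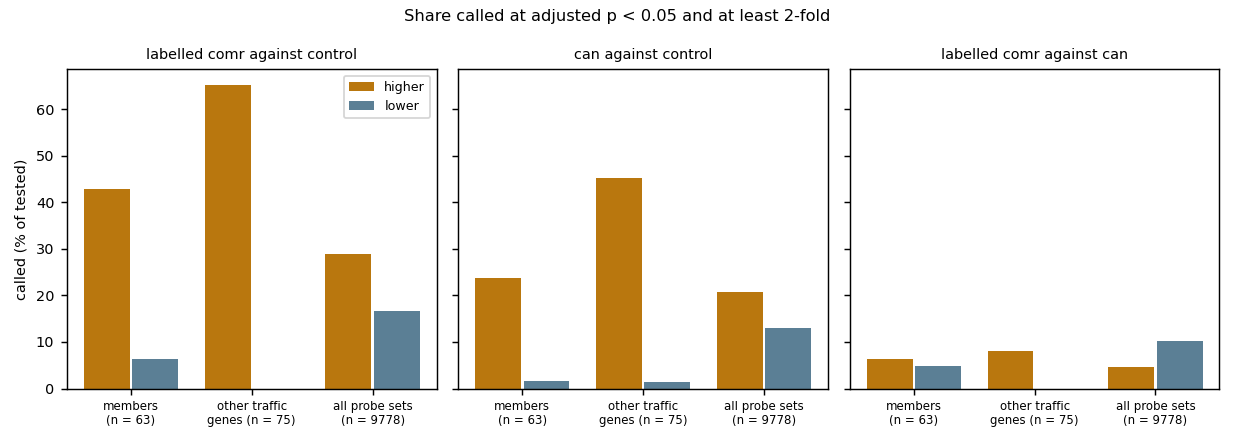
Percentage of tested probe sets called higher (orange bars) and lower (blue bars) at an adjusted p under 0.05 and at least 2-fold, for the 63 members, for 75 further traffic genes and for all 9778 tested probe sets. In arrays labelled comr against control, 42.9% of members and 28.9% of all probe sets were called higher, a split that depends on the scaling of the arrays.

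The direction of the whole group depends on what the arrays are scaled to. All changes are differences of log2(signal + 16), which understates the change of dim genes. As deposited, the median change of the 63 members was 0.79 in arrays labelled comr and 0.61 in can, beside 0.35 and 0.29 for all tested probe sets. The gap depends on how many dim probe sets are kept. With the dimmest 50% left out it narrowed, to 0.80 beside 0.56 in arrays labelled comr and 0.61 beside 0.43 in can. With no filter it widened, to 0.72 beside 0.03 and 0.57 beside 0.07. With the arrays centred on the cytosolic ribosomal protein genes, which were brighter in both mutants as deposited, the median of the members was -0.26 and -0.65, beside -0.70 and -0.97 for all. That centring left 2 members, betaCOP and Vps52, called higher in arrays labelled comr and 11 called lower, and in can 0 higher and 19 lower. Of all 9778 tested probe sets it called 509 higher and 4005 lower in arrays labelled comr, and 110 and 4723 in can. Relative to the median of all tested probe sets, 46 of 63 members (73.0%) lay above it in arrays labelled comr, 44 (69.8%) in can, and 42 (66.7%) in arrays labelled comr against can. A called rise below is therefore a rise on the scale of the deposited values, and the value after ribosomal protein centring is given for each group of genes. Counts called in a group are to be read beside the shares of all tested probe sets. As deposited these were 28.9% higher and 16.7% lower in arrays labelled comr, and 20.7% and 13.0% in can. In arrays labelled comr against can they were 4.54% and 10.3%.

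**Figure D2:**
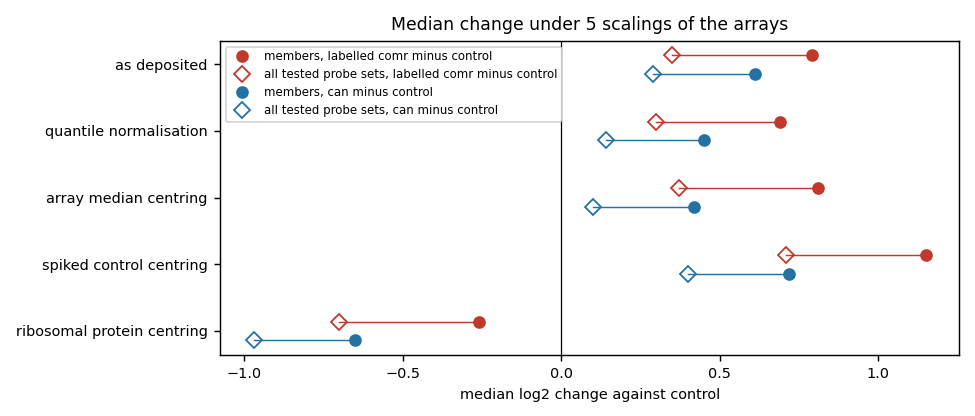
Median log2 change against control (horizontal axis) of the 63 members (filled circles) and of all tested probe sets (open diamonds) under 5 scalings of the arrays. The members' median lay above that of all probe sets in each row, and both were below 0 with ribosomal protein centring.

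The COPI coat had 3 of its 5 members called higher in each mutant. COPI surrounds vesicles that return from the Golgi to the endoplasmic reticulum, and alphaCOP, betaCOP and gammaCOP are subunits of that coat. Signals of betaCOP (CG6223, chromosome X) were 97.5, 97.5 and 112.4 in control, 453.2, 525.3 and 465.1 in arrays labelled comr and 370.4, 376.9 and 438.2 in can. The lowest mutant array was more than 3 times the highest control array. The log2 change of betaCOP was 2.07 (SE 0.09, adjusted p = 6.94e-10, limma) in arrays labelled comr and 1.79 (SE 0.09, adjusted p = 5.33e-09) in can.

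Signals of alphaCOP (CG7961, 3L) were 114.3, 135.8 and 129.9 in control, 440.8, 412.9 and 442.0 in arrays labelled comr and 313.9, 291.1 and 330.9 in can. The 3 groups did not overlap, and the rise was 1.65 (SE 0.08) in arrays labelled comr and 1.20 (SE 0.08) in can. For gammaCOP (CG1528, 3R) the control arrays read 187.5, 203.5 and 176.9, those labelled comr 542.3, 518.6 and 621.8, and can 585.2, 565.3 and 530.0. Both mutants stood above control and overlapped each other, with a rise of 1.49 (SE 0.09) in each. The epsilonCOP subunit was 0.80 and 0.82 above control with all mutant arrays above all control arrays, short of 2-fold, and deltaCOP 0.47 and 0.36. The median of the 5 COPI genes was 1.49 in arrays labelled comr (0.44 after ribosomal protein centring) and 1.20 in can (-0.05 after that centring).

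The COPII coat, which buds cargo from the endoplasmic reticulum, had 4 of 5 members called higher in arrays labelled comr and 3 of 5 in can. Sec13 (CG6773, 3R), of the outer cage of the coat and also of the nuclear pore, read 100.2, 105.3 and 139.0 in control, 433.4, 482.1 and 427.1 in arrays labelled comr and 469.3, 397.5 and 265.3 in can. The third can array was lower than the other two but still above every control array. Sec13 rose by 1.84 (SE 0.17, adjusted p = 7.11e-07, limma) in arrays labelled comr and by 1.56 (SE 0.17, adjusted p = 4.38e-06) in can.

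Sec31, the partner of Sec13 in the outer cage, went from a mean of 211.8 ± 54.4 (SD, n = 3) in control to 489.7 ± 29.3 in comr-labelled arrays and 451.6 ± 33.8 in can, rises of 1.18 and 1.06 (SE 0.14). Of the inner shell subunits that hold cargo, Sec24CD rose by 1.01 and 1.02 (SE 0.13), while Sec24AB changed by 0.24 and 0.23 (SE 0.11) with overlapping arrays and was not called in either mutant. The call of Sec24CD was lost in arrays labelled comr without control replicate 1 or mutant replicate 2 and in can without replicate 1 of either group, and that of Sec31 in can without control replicate 1. Sec16, which organises the sites where these vesicles form, was above the floor on 1 control array of 3 and reached 48.1 ± 5.24 in comr-labelled arrays (log2 change 1.00, SE 0.21) and 37.5 ± 2.33 in can (0.74, not called). Its call was lost when any of 4 single arrays was left out. For the 5 genes the median was 1.01 and 1.02, and -0.04 and -0.23 after ribosomal protein centring.

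The channel of the endoplasmic reticulum was divided, with 2 of 4 members called higher in each mutant. Sec63 (CG8583, 3L), which couples the channel to the luminal chaperone BiP, read 68.2, 49.8 and 54.2 in control, 159.1, 209.1 and 196.5 in arrays labelled comr and 217.6, 272.2 and 355.9 in can. Every can array lay above every array labelled comr, and the rise was 2.00 (SE 0.16, adjusted p = 2.65e-07, limma) in can and 1.48 (SE 0.16, adjusted p = 3.32e-06) in arrays labelled comr. The difference between the mutants was -0.53 (adjusted p = 0.0184, limma), under 2-fold.

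Sec61alpha, the pore itself, went from 649.0 ± 13.2 (SD, n = 3) in control to 1621 ± 101 in comr-labelled arrays and 1400 ± 39.0 in can, rises of 1.30 and 1.09 (SE 0.06). Sec61beta was 0.52 and 0.75 above control, not called. Sec61gamma overlapped between all groups, with changes of -0.08 and -0.02 (SE 0.08). Over the 4 channel genes the median was 0.91 and 0.92, or -0.14 and -0.34 after ribosomal protein centring.

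**Figure D3:**
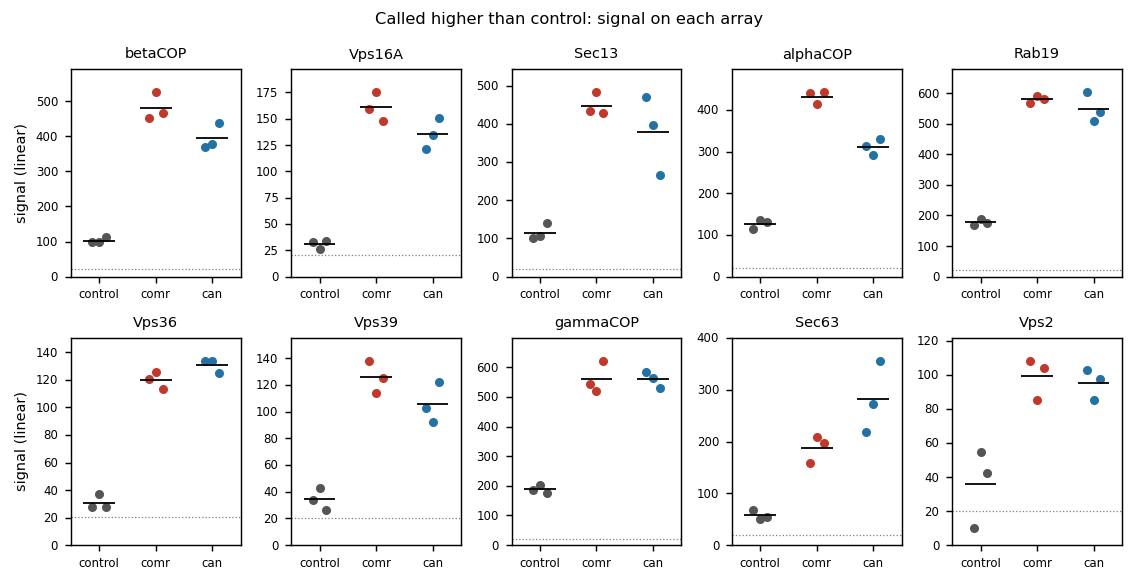
Signal on each array (points, linear scale) for 10 members called higher than control in each comparison, with the group means as bars and the floor of 20.3 as a dotted line, where "comr" marks the arrays labelled comr. Mutant arrays lay above all control arrays in every panel, and Vps2 read 10 on 1 control array. After ribosomal protein centring betaCOP alone of these 10 remained called, and in arrays labelled comr alone.

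The exocyst, which tethers vesicles to the plasma membrane, had 3 of 4 tested members called higher in arrays labelled comr and 0 of 4 in can. In can, 3 of those 4 had an adjusted and an unadjusted p under 0.05 in limma, at less than 2-fold. Sec10 (CG6159, 3R) read 61.4, 68.9 and 70.6 in control, 176.0, 174.8 and 157.2 in arrays labelled comr and 66.9, 64.6 and 56.9 in can. Control and can overlapped, and the arrays labelled comr stood above both. Sec10 was 1.16 (SE 0.10, adjusted p = 3.36e-07, limma) above control in arrays labelled comr, and 1.23 (SE 0.10, adjusted p = 6.9e-07) above can.

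Sec8, whose loss in flies blocks spermatocyte cytokinesis, was 210.9 ± 8.17 in control, 469.9 ± 14.6 in comr-labelled arrays and 337.3 ± 37.5 in can, changes of 1.10 and 0.63 (SE 0.09). The difference of 0.47 between the mutants had an adjusted p of 0.000767 in limma and was under 2-fold. Sec15 was at or under the floor on all control arrays and at least 2.16-fold higher in arrays labelled comr (fitted adjusted p = 1.77e-05, limma) and at least 1.76-fold higher in can (0.000157, under 2-fold in the fit). The call of Sec15 was lost without control replicate 1 or mutant replicate 3. Sec5 was 0.79 and 0.69 above control, and Sec3, at 8.5 to 23.3 on the 9 arrays, was too dim to test. Over the 4 tested genes the median was 1.07 in arrays labelled comr and 0.66 in can, and 0.02 and -0.59 after ribosomal protein centring.

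Among the remaining Sec genes, 2 of 3 were called higher in arrays labelled comr and 1 in can. Sec20 (CG2023, 3R), a SNARE for retrograde traffic to the endoplasmic reticulum, read 67.2, 57.7 and 89.6 in control, 193.0, 196.8 and 212.4 in arrays labelled comr and 186.3, 169.2 and 161.4 in can. All mutant arrays lay above all control arrays, with a rise of 1.32 (SE 0.12, adjusted p = 7.23e-07, limma) and 1.12 (SE 0.12, adjusted p = 4.78e-06). Sec22, a SNARE between the endoplasmic reticulum and the Golgi, rose by 1.24 in arrays labelled comr and was 0.60 above control in can (SE 0.12). Sec71, an exchange factor that activates Arf GTPases, was 0.86 and 0.54 above control, not called. These 3 genes had a median of 1.24 and 0.60, or 0.19 and -0.65 after ribosomal protein centring.

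The Rab GTPases moved in both directions. Of 14 tested, 2 (14.3%) were called higher and 2 (14.3%) lower in arrays labelled comr, against 28.9% and 16.7% of all tested probe sets. In can 1 (7.14%) was called higher and 0 lower, against 20.7% and 13.0%. There 10 of the 14 had an unadjusted p under 0.05 in limma in either direction, a count not set beside all probe sets. Rab19 (CG7062, 3L) read 169.5, 189.4 and 175.2 in control, 568.7, 589.0 and 581.1 in arrays labelled comr and 602.4, 507.4 and 537.1 in can. The mutants overlapped and both stood above control, with rises of 1.62 and 1.54 (SE 0.08, adjusted p = 1.4e-09 and 4.64e-09, limma). Rab18, known in mammals at the endoplasmic reticulum and on lipid droplets, rose by 1.10 in arrays labelled comr and was 0.92 above control in can (SE 0.10).

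Rab14 (CG4212, 2L), a Rab of the Golgi and endosomes, had the largest fall among the Rab GTPases. It read 787.1, 726.9 and 829.7 in control, 178.1, 163.7 and 180.2 in arrays labelled comr and 384.2, 420.3 and 357.6 in can. The 3 groups did not overlap. It fell by 2.07 (SE 0.08, adjusted p = 2.15e-10, limma) in arrays labelled comr, and its change of -0.98 (SE 0.08, adjusted p = 3.76e-07) in can was just short of 2-fold and was called without replicate 2 of control or of can. The arrays labelled comr were 1.08 below can on the log2 scale (adjusted p = 3.82e-07, limma).

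Rab9Fa (CG32671, X), a fly Rab named for its likeness to Rab9, read 137.6, 162.4 and 175.0 in control, 29.3, 45.8 and 52.3 in arrays labelled comr and 291.9, 277.8 and 210.5 in can. The arrays labelled comr lay below every control array and the can arrays above every one. It fell by 1.59 (SE 0.16, adjusted p = 1.62e-06, limma) in arrays labelled comr and was 0.66 (adjusted p = 0.00317) above control in can, not called, or -0.60 in can after ribosomal protein centring. The difference between the mutants was -2.25 (SE 0.16, adjusted p = 2.24e-07, limma).

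Rab32 (CG8024, 2R), which acts in the making of pigment granules and other organelles related to lysosomes, read 321.5, 342.6 and 278.1 in control, 300.0, 247.6 and 245.9 in arrays labelled comr and 589.7, 568.3 and 556.3 in can. Control and arrays labelled comr overlapped (change -0.23), and the can arrays stood above both, at 0.84 against control and with a difference of -1.07 (SE 0.10, adjusted p = 1.72e-06, limma) in arrays labelled comr against can. Centring on array medians, spiked controls or ribosomal proteins brought the differences of Rab14 and Rab32 between the mutants to under 2-fold, at -0.83 to -0.88 for Rab14 and -0.82 to -0.87 for Rab32.

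The other tested Rab genes were not called against control. In arrays labelled comr they ranged from -0.34 for Rab30 to 0.72 for Rab2, a Rab of traffic between the endoplasmic reticulum and the Golgi, and in can from -0.36 for Rab26 to 0.76 for Rab35. Rab9 was under the floor on all control arrays (6.3 to 11.5) and above it on 2 arrays of each mutant. Rab3 and Rab23 did not exceed 7.4 on any array and were not tested. A second probe set of Rab10 gave 0.51 and 0.63, beside 0.62 and 0.51 for the brighter one. Over all 14 the median was 0.45 in arrays labelled comr and 0.58 in can, or -0.60 and -0.68 after ribosomal protein centring.

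The regulators of Rab3 were lower or not called. Rab3-GAP (CG7061, 2L), the fly subunit of the complex that switches Rab3 off and in mammals acts on Rab18 as well, had the largest change of any member. Signals were 2829.6, 2814.3 and 2740.2 in control, 346.9, 373.3 and 361.0 in arrays labelled comr and 639.7, 706.9 and 610.6 in can. The groups were far apart and each was tight. It fell by 2.90 (SE 0.07, adjusted p = 1.64e-12, limma) in arrays labelled comr and by 2.08 (SE 0.07, adjusted p = 1.53e-10) in can, and the mutants differed by -0.83 (adjusted p = 8.12e-07, limma), under 2-fold.

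Its partner subunit Rab3GAP1 was 139.4 ± 9.45 in control, 81.97 ± 1.64 in comr-labelled arrays and 80.83 ± 5.4 in can, changes of -0.66 and -0.68 (SE 0.09), not called. The second probe set of Rab3GAP1 gave -0.13 and -0.42. Rab3-GEF, which switches Rab3 on, overlapped control in both mutants (-0.18 and 0.41, SE 0.19). The Rab3 transcript was under the floor on all 9 arrays. The median of the 3 regulators was below 0 under all 5 scalings, from -0.30 to -1.71 in arrays labelled comr and from -0.57 to -1.94 in can.

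**Figure D4:**
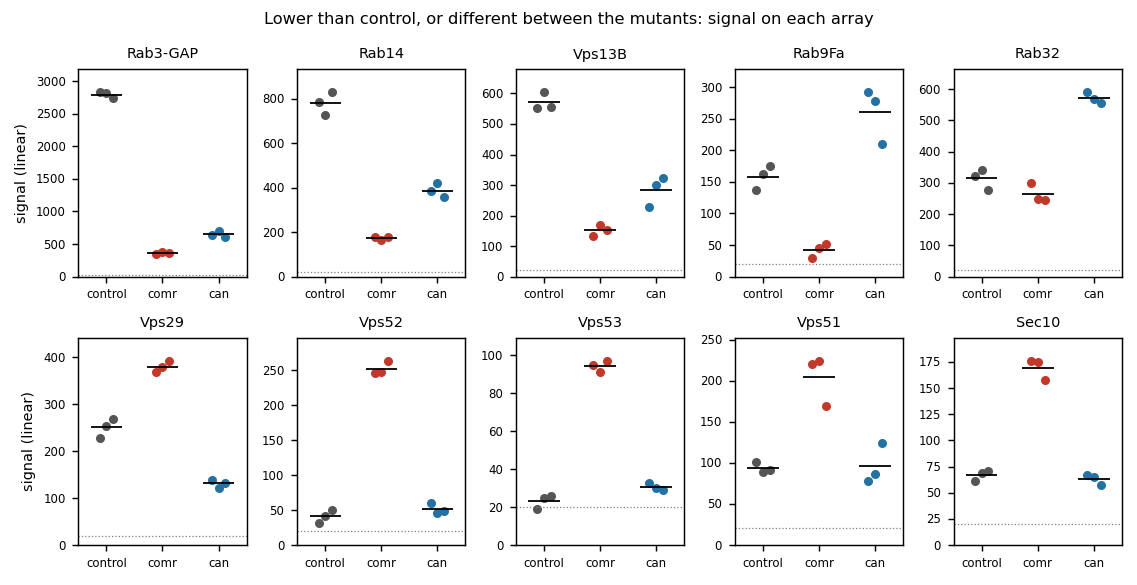
Signal on each array (points, linear scale) for 10 members that were lower than control or differed between the mutants, with the group means as bars and the floor of 20.3 as a dotted line, where "comr" marks the arrays labelled comr. Rab3-GAP fell from about 2795 to 360.4 and 652.4, and Vps29 and Rab9Fa lay on opposite sides of control in the mutants as deposited, but below it in both after ribosomal protein centring. Vps51 is shown because it is the third tested GARP subunit.

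Retromer sorts receptors from endosomes back to the Golgi or the cell surface, and 1 of its 3 core subunits was called higher in each mutant. Vps35, the scaffold, rose by 1.01 and 1.07 (SE 0.14), a call lost in arrays labelled comr without control replicate 3 or mutant replicate 1, and in can without control or mutant replicate 3. Vps26 was 0.34 and 0.33 above control (SE 0.12), not called. Vps29 (CG4764, 2L) read 228.5, 254.6 and 269.7 in control, 369.8, 379.0 and 392.9 in arrays labelled comr and 139.5, 122.6 and 132.0 in can.

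As deposited, the Vps29 signals fell into 3 separate groups with control in the middle, while after ribosomal protein centring both mutants lay below control, at -0.48 and -2.11. The change was 0.57 (SE 0.09, adjusted p = 4.71e-05, limma) in arrays labelled comr and -0.86 (SE 0.09, adjusted p = 1.64e-06) in can, both short of 2-fold, while the mutants differed by 1.43 (SE 0.09, adjusted p = 3.32e-08). That difference was called under all 5 scalings. Retromer as a group had a median of 0.57 and 0.33, or -0.48 and -0.92 after ribosomal protein centring.

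The ESCRT complexes bend endosomal membrane away from the cytoplasm and also act in the last step of cytokinesis. Of 9 members, 3 (33.3%) were called higher in arrays labelled comr and 2 (22.2%) in can, near the 28.9% and 20.7% of all tested probe sets. Vps36 (CG10711, 3L), of ESCRT-II, read 27.6, 37.0 and 27.7 in control, 120.4, 125.9 and 113.3 in arrays labelled comr and 133.5, 133.9 and 124.9 in can. The mutants overlapped and stood far above control, with rises of 1.54 and 1.66 (SE 0.11, adjusted p = 4.12e-08 and 3.4e-08, limma). Vps25, its partner in ESCRT-II, was 0.32 and 0.45 above control, not called.

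Vps2 (CG14542, 3R), of ESCRT-III, which forms the filament, read 10, 54.6 and 42.6 in control, 108.3, 85.4 and 104.0 in arrays labelled comr and 103.0, 85.5 and 97.7 in can. The first control array was under the floor and far from the other two. The rise was 1.27 (SE 0.28, adjusted p = 0.00125, limma) and 1.22 (SE 0.28, adjusted p = 0.00191), and without that array it was 0.79 in can and the calls in both comparisons were lost. The other ESCRT-III members Vps20, Vps24 and Vps60 and the ATPase Vps4, which takes the filament apart, were 0.32 to 0.76 above control in arrays labelled comr and 0.01 to 0.79 in can, not called.

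Of the 2 members in ESCRT-I, Vps37B and Vps28, 1 was called. Vps37B rose by 1.34 in arrays labelled comr and was 0.88 above control in can (SE 0.10). Vps28 was 915.1 ± 163 in control, 471.2 ± 11.1 in comr-labelled arrays and 491.9 ± 38.8 in can, changes of -0.92 and -0.86 (SE 0.11), short of 2-fold, with all mutant arrays under all control arrays. Vps28 was called lower in arrays labelled comr without control replicate 1. The 9 ESCRT genes had a median of 0.51 and 0.45, or -0.54 and -0.81 after ribosomal protein centring.

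HOPS and CORVET tether late and early endosomes, and 3 of 5 members were called higher in arrays labelled comr and 2 in can. Vps16A (CG8454, 3R), of the core that both complexes share, read 33.3, 25.9 and 34.1 in control, 159.2, 175.1 and 148.3 in arrays labelled comr and 121.1, 135.0 and 151.2 in can. The mutants overlapped, and every mutant array was above every control array. The rise was 1.91 (SE 0.12, adjusted p = 1.04e-08, limma) and 1.69 (SE 0.12, adjusted p = 5.37e-08).

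Vps39 (CG7146, 3R), found in HOPS, read 33.6, 42.8 and 26.4 in control, 138.0, 113.8 and 125.1 in arrays labelled comr and 102.3, 92.3 and 122.5 in can. All mutant arrays again stood above control, with rises of 1.50 (SE 0.14, adjusted p = 6.69e-07, limma) and 1.28 (SE 0.14, adjusted p = 4.14e-06). Vps8, found in CORVET, was 0.80 and 0.61 above control, not called. Vps33B and Vps16B pair with each other apart from the HOPS core. Vps33B rose by 1.40 in arrays labelled comr and was 0.96 above control in can, and Vps16B was 0.56 and 0.54 above control (SE 0.10). The median of the 5 was 1.40 and 0.96, or 0.35 and -0.30 after ribosomal protein centring.

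GARP, which tethers vesicles from endosomes at the Golgi, had 2 of its 3 tested members, Vps52 and Vps53, called higher in arrays labelled comr against control and also against can. Of all tested probe sets 28.9% and 4.54% were called higher in those comparisons. As deposited, 0 of the 3 were called by limma in can against control, and 0 had an unadjusted p under 0.05. After ribosomal protein centring all 3 were called lower in can, as were 4723 of all 9778 tested probe sets. Vps52 (CG7371, 2L) read 31.9, 42.1 and 49.7 in control, 245.9, 247.4 and 263.2 in arrays labelled comr and 60.0, 45.8 and 48.5 in can. Control and can overlapped, and the arrays labelled comr stood about 4 times above the highest of both. Vps52 rose by 2.24 (SE 0.13, adjusted p = 6.8e-09, limma) in arrays labelled comr, was 0.24 (adjusted p = 0.113) above control in can, and differed by 2.00 (SE 0.13, adjusted p = 7.87e-08) between the mutants.

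Vps53 (CG3338, 2L) read 19.1, 24.9 and 25.7 in control, 94.6, 91.0 and 97.0 in arrays labelled comr and 32.9, 29.8 and 29.0 in can. The can arrays lay just above control and far below those labelled comr. Control was near the floor of 20.3, with 2 arrays of 3 above it. It rose by 1.49 (SE 0.12, adjusted p = 1.24e-07, limma) in arrays labelled comr, was 0.25 (adjusted p = 0.0737) above control in can, and differed by 1.24 (SE 0.12, adjusted p = 2.54e-06) between the mutants. Vps51 read 101.3, 89.2 and 91.9 in control, 220.4, 224.2 and 168.8 in arrays labelled comr and 78.5, 86.6 and 124.4 in can.

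The arrays labelled comr were again the high ones for Vps51, with can overlapping control. Its change of 0.99 (SE 0.15, adjusted p = 5.7e-05, limma) against control and its difference of 0.98 (adjusted p = 0.00017) between the mutants were both just short of 2-fold. The first was called without control replicate 1 or mutant replicate 3, and the second without replicate 3 of either mutant. Vps50, which takes the place of one GARP subunit in a sister complex, did not exceed 21.6 on any array and was not tested. The median of the 3 GARP genes between the mutants was 1.24 as deposited and 1.24 to 1.49 over the 5 scalings. Against control it was 1.49 in arrays labelled comr (0.44 after ribosomal protein centring) and 0.24 in can (-1.01 after that centring).

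The remaining Vps genes include a family of lipid transfer proteins, of which 2 were called higher and 1 lower in arrays labelled comr. Vps13B (CG15523, 3R), known in humans as a Golgi protein, read 553.4, 603.6 and 555.9 in control, 131.9, 170.5 and 151.1 in arrays labelled comr and 226.5, 299.6 and 322.4 in can. The 3 groups did not overlap. It fell by 1.82 (SE 0.12, adjusted p = 3.28e-08, limma) in arrays labelled comr, and its change in can was -0.99 (SE 0.12, adjusted p = 1.41e-05), just short of 2-fold and called without control replicate 1 or 3 or without can replicate 2 or 3.

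Vps13 went from 87.7 ± 14 in control to 206.6 ± 33.1 in comr-labelled arrays (rise 1.10, SE 0.14) and 128.2 ± 15.7 in can (0.48, not called). Its call was lost without control replicate 3 or mutant replicate 3. Vps13D, known at contacts of mitochondria with the endoplasmic reticulum, went from 26.3 ± 3.46 to 97.77 ± 11.3 in comr-labelled arrays (rise 1.43, SE 0.13) and 46.8 ± 6.71 in can (0.57, not called). A dimmer second probe set of Vps13D, not tested, read 20.5 ± 3.66 in control, 10.53 ± 4.85 in comr-labelled arrays and 10.9 ± 1.57 in can, the opposite order of the first. The kinase subunit Vps15 and the SNARE regulator Vps45 were 0.67 and 0.72 above control in arrays labelled comr and 0.83 and 0.48 in can, not called. These 5 had a median of 0.72 and 0.48, or -0.33 and -0.77 after ribosomal protein centring.

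**Figure D5:**
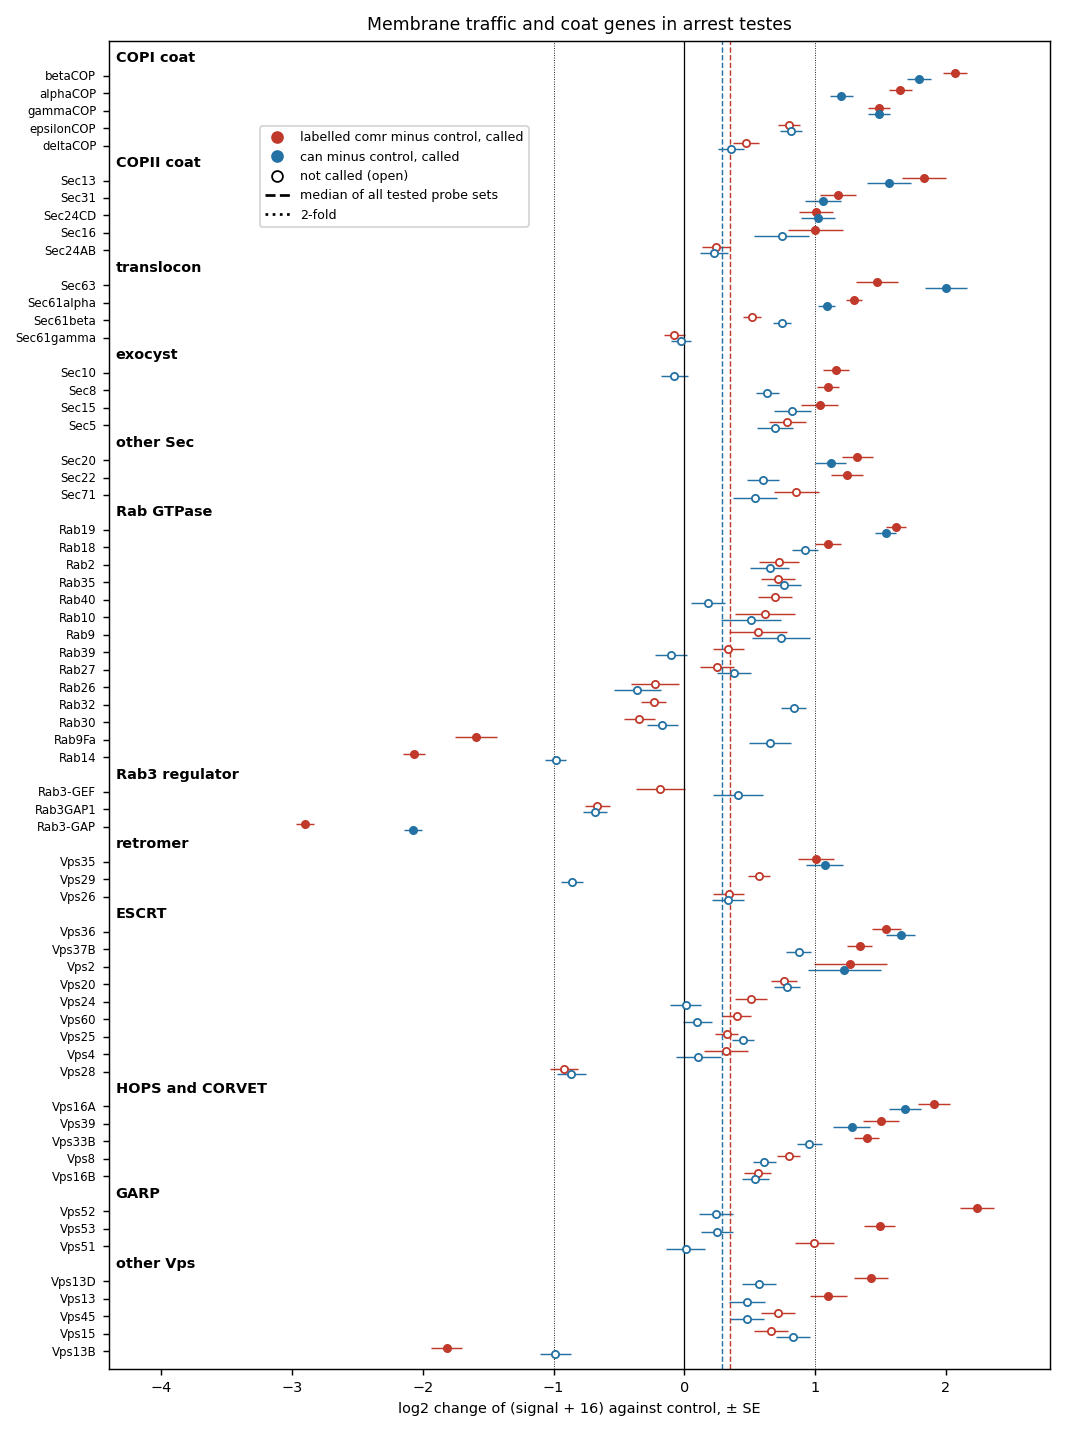
Log2 change of signal + 16 against control with its SE (horizontal axis) for the 63 tested members, grouped by role, in arrays labelled comr (red) and can (blue). Filled points were called and open points were not, dashed lines mark the medians of all tested probe sets at 0.35 and 0.29, and Rab3-GAP at -2.90 and -2.08 lies farthest from 0. The median of the whole group turned below 0 with ribosomal protein centring.

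By chromosome arm, 17 members lay on 3R, 15 on X, 13 on 2L, 13 on 2R and 9 on 3L. On 3R, 11 of 16 tested members were called higher in arrays labelled comr, where 30% of all tested probe sets on that arm were, and on X 4 of 15 were, against 24.6%. In can the counts were 6 of 16 on 3R, against 20.6%, and 1 of 15 on X, against 20.7%. On 3L, 5 of 8 were called higher in arrays labelled comr, against 30.9%, and 4 of 8 in can, against 19.2%. The counts were 4 of 13 (against 30.4%) and 2 of 13 (against 21.1%) on 2L, and 3 of 11 (against 29.1%) and 2 of 11 (against 21.3%) on 2R.

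Genes of the same pathways whose names the rule did not cover were read for comparison. Of 93 listed, 77 were measured and 75 tested. In arrays labelled comr 49 (65.3%) were called higher, against 28.9% of all tested probe sets, and 0 lower, against 16.7%. In can, 34 (45.3%) were called higher, against 20.7%, and 1 (1.33%) lower, against 13.0%. The gene called lower was lqf, an epsin of endocytosis, at -1.22. Between the mutants, 6 (8.0%) were called higher in arrays labelled comr, against 4.54%, and 0 lower, against 10.3%. An unadjusted p under 0.05 in limma, in either direction, was met by 72 in arrays labelled comr against control and by 52 against can. Those 2 counts were not set beside all probe sets. The median of the 75 genes was 1.20 in arrays labelled comr and 0.92 in can, or 0.15 and -0.34 after ribosomal protein centring.

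Of the TRAPP tether 5 of 6 genes were called higher in arrays labelled comr and 4 in can. Of all tested probe sets 28.9% and 20.7% were. Trs31 went from a mean of 9.033 in control, under the floor, to 171.3 and 40.1, at least 8.31-fold and 1.96-fold higher. Trs23 went from 51.6 to 325.0 and 242.7. In both mutants the arrays of all 6 TRAPP genes lay above every control array. Of the golgins, the coiled tethers of the Golgi, 7 of 9 were called higher in arrays labelled comr and 5 in can. GM130 went from 47.8 to 252.0 and 245.0. In each mutant the arrays of 8 golgins lay above every control array and those of 1 below. Of the clathrin coat and its adaptors 12 of 16 were called higher in arrays labelled comr and 8 in can, including Clc. This light chain changed by 1.46 and 1.10. Arrays lay above every control array for 14 of the 16 in arrays labelled comr and 13 in can, and below for 2 in each. The medians of the TRAPP, golgin and clathrin genes were 1.53, 1.39 and 1.17 in arrays labelled comr and 1.18, 1.11 and 1.03 in can, and after ribosomal protein centring 0.48, 0.34 and 0.12, and -0.08, -0.15 and -0.22.

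Of 12 tested SNAREs and regulators, 3 were called higher in arrays labelled comr than in can, and 0 lower. Of all tested probe sets 4.54% were called higher and 10.3% lower in that comparison. Gos28, a Golgi SNARE, rose from 71.8 to 572.2 in arrays labelled comr and to 289.8 in can, the largest SNARE change at 2.74 and 1.80. Membrin, another Golgi SNARE, and Slh, a regulator of such SNAREs, rose by 2.14 and 1.88 in arrays labelled comr. They lay 1.33 and 1.18 above can. The synaptic SNARE nSyb was under the floor on every can array and at least 1.57-fold higher in arrays labelled comr. It was near the floor elsewhere too, at 19.3 to 44.9 in control and 21.3 to 43.9 in arrays labelled comr. Those 2 groups overlapped, with a change of 0.18. The median of the 12 genes was 1.07 in arrays labelled comr and 0.86 in can, or 0.02 and -0.39 after ribosomal protein centring, where the calls higher went from 8 to 2 and from 4 to 0. Of the exocyst genes with other names, Exo70 rose by 2.12 and 1.50 as deposited. Exo84, needed for spermatocyte cytokinesis, was under the floor on every control and can array and at least 1.74-fold higher than either in arrays labelled comr.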

How the data were processed

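Each of the 9 arrays gave 1 value for 14010 probe sets. The authors deposited probe set intensity in linear units from GCOS 1.4, per the submitters' processing notes. The signal algorithm and background step are not stated there. Every array had a trimmed mean of 100.0 (2% left out at each end), so no further scaling was applied. Gene symbols (12443 probe sets with 1 symbol, 327 with several, 1196 with none) came from the array's annotation, updated through the current gene table, and neither gene coordinates nor probe sequences were used.

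Values were taken as log2(signal + 16). The 44 control probe sets and the dimmest 30% by mean over the arrays (mean signal 15.1) were left out, which left 9778. Groups were compared with limma 3.58.1 in R 4.3.3, 1 coefficient per group, an intensity trend and two-sided tests, with Benjamini-Hochberg adjustment over all tested probe sets. The procedure was tested on simulated data. A group with every array at or under the floor gives a lower bound, the geometric mean of the brighter group over the floor. The smallest exact permutation p for 3 arrays against 3 is 0.1. Members shown on every array were, per comparison with control, the 10 called rises and 10 called falls of largest size, the 6 each way between the mutants, and 1 member for any role without these. Any other named gene was chosen after its values were seen. The members and all lists were chosen with earlier results of these data known. Alternatives were other offsets, filters, scalings, samples and thresholds, the replicate number as a block and each array left out. Same-numbered arrays did not deviate together (correlations of deviations -0.137 to 0.192), so the numbers were not taken to pair them.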

Additional observations from a re-analysis of the deposited data

Results flagged for a closer look

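Rab9Fa and Vps29 were singled out because, as deposited, all arrays of one mutant lay above every control array and all arrays of the other lay below. The difference between the mutants also had to be called, so the adjusted p values given next are part of the selection. Rab9Fa was 2.25 lower on the log2 scale in arrays labelled comr than in can (log2 difference -2.25, limma adjusted p = 2.24e-07), and Vps29 was higher by 1.43 (adjusted p = 3.32e-08). The sides of control depend on the scaling: after ribosomal protein centring both mutants lay below control, at -2.64 and -0.60 for Rab9Fa and -0.48 and -2.11 for Vps29, with differences between the mutants of -2.04 and 1.63. The strain markers also differ between these groups, and their part in the difference was not tested.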

How the results depend on the processing

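Leaving out each array in turn gave 24 to 27 members higher and 4 to 5 lower in arrays labelled comr against control, 13 to 16 higher and 1 to 3 lower in can, and 4 to 5 higher and 3 lower between the mutants. The single call lower in can, Rab3-GAP, was joined by Vps13B or Rab14, which lie just short of 2-fold, so this count was 2 without control replicate 1, 2 or 3 or can replicate 3, and 3 without can replicate 2. With the replicate number as a block the members' counts were 27 and 4, 15 and 1, and 4 and 3, and no member's call changed.
An offset of 64, which shrinks the changes of dim genes, left 10 members higher in arrays labelled comr and 8 in can, and 2 higher and 1 lower between the mutants. An offset of 1 gave 3 lower in can. A 4-fold threshold, stricter by construction, left 2 higher and 2 lower in arrays labelled comr, 1 higher in can, and 0 higher and 1 lower between the mutants. Over all probe sets these settings gave 1492 (offset 64) and 588 (4-fold) higher and 1069 (4-fold) lower in arrays labelled comr, 946 and 225 higher and 584 lower in can, and between the mutants 150 and 28 higher and 503 and 439 lower, with 703 higher at an offset of 1.
Centring on ribosomal proteins gave 2 members higher and 11 lower in arrays labelled comr, 0 and 19 in can, and 1 lower between the mutants, where array median and spiked control centring also gave 1. Over all probe sets it gave 509 higher and 4005 lower, 110 and 4723, and 763 higher between the mutants, as did array median centring, with 866 for spiked controls. Among the changes by which members were chosen to be shown on every array, 2 reversed in sign with ribosomal protein centring. These were Vps2 (-0.03) and alphaCOP (-0.05), both in can. Changes outside that choice reversed as well, and the median of all tested members in can went from 0.61 to -0.65. In can, 13 members were called higher and 2 lower with quantile normalisation, and 10 and 5 with array median centring. Both lost the calls of Sec24CD, Sec20 and Vps35, and array median centring also those of Sec31 and Sec61alpha. Quantile normalisation added Sec61beta to the calls higher. In arrays labelled comr it left 22 higher, without Sec24CD, Vps13, Rab18, Sec10 and Vps35. Spiked control centring gave more calls higher, 38 in arrays labelled comr and 17 in can. Without the array of each group with most accessory gland signal, the counts were 23 and 5, 11 and 2, and 5 and 3. The cause of these shifts was not tested. Signals near the floor of 20.3, as for Sec16, Sec15, Rab9, Vps2, Vps53 and Vps45 in control, limit what can be read from the changes of those genes.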
